A study of Homo sapiens with 2 samples.

Results

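The cell cycle and DNA replication genes described here are 48 genes that drive or mark progress from G1 through DNA synthesis to mitosis. They were chosen by name, as 14 genes of G1 and the G1/S step, 12 replication genes and 22 genes of G2 and mitosis, out of 19775 genes that could be named on the arrays. A gene was represented by the probe set that carries its symbol alone and has the highest mean over both arrays, and all 48 had such a probe set. RNA came from HEC1A, an established human endometrial adenocarcinoma line grown in serum, in 2 engineered states. One culture was labelled as overexpressing EMP2, a small tetraspan membrane protein, and the other carried a short hairpin RNA vector for EMP2 knockdown. Each state was measured on 1 array, no unmodified HEC1A array was analysed here, and the promoter of the overexpression vector, the hairpin and the clonality of the lines are not given in the labels used here. Differences below were formed by subtracting the knockdown log2 value from the overexpression one. They have no replicate check, and no p-value can be given.

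Progress through G1 is set by D-type cyclins, which pair with CDK4 or CDK6, and by E-type cyclins, which pair with CDK2. These kinases phosphorylate the RB family and so release E2F factors, which switch on genes for licensing and copying DNA. Later in the cycle the same genes are repressed again, and the cyclins, kinases and motors of mitosis are transcribed with help of B-MYB and FOXM1. In proliferating carcinoma cells most of these genes are active together, and in RNA of a whole culture more cells in a phase and more RNA per cell cannot be told apart.

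These 2 layers of control can be read in the reference promoters. E2F factors bind words such as TTTCCCGC, TTTCGCGC, TTTGCCGC and TTTGGCGC. The cell cycle genes homology region, CHR, has the word TTTGAA and is read by the complex that represses and later activates mitotic genes, often beside CCAAT boxes bound by NF-Y. RefSeq promoter sequences of GRCh38.p14, each from 250 bases before to 50 bases after a start site, were matched to 37 of the 48 genes and searched on both strands for these words. Matches can share bases, as the E2F-type words of MCM6 do. The stretches below are the 120 bases just before the start site of genes with 1 start site in the table. They show the E2F-type word in G1 and replication genes and the CHR word with CCAAT boxes in mitotic genes. Capitals mark these words, which read in reverse as GCGGGAAA or GCGCGAAA for E2F, and ATTGG for the CCAAT box.
RBL1, chr20:37095998-37096117, minus strand: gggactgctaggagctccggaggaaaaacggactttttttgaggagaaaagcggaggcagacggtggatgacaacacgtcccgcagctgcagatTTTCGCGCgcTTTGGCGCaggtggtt
CDC25A, chr3:48188418-48188537, minus strand: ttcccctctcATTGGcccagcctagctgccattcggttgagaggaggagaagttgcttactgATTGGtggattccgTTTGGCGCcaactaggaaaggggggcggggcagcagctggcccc
TYMS, chr18:657533-657652, plus strand: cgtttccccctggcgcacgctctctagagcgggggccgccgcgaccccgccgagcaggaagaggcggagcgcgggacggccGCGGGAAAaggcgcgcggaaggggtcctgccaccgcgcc
MCM6, chr2:135876444-135876563, minus strand: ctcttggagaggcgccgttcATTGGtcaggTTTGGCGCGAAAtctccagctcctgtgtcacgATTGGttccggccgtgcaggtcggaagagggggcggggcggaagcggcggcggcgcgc
CCNB2, chr15:59105026-59105145, plus strand: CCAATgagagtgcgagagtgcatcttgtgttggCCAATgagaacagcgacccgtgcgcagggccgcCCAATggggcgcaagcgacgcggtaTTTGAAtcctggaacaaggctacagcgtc
PLK1, chr16:23678769-23678888, plus strand: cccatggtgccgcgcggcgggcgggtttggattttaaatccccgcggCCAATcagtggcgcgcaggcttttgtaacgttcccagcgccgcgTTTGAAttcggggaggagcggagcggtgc
CDC20, chr1:43358861-43358980, plus strand: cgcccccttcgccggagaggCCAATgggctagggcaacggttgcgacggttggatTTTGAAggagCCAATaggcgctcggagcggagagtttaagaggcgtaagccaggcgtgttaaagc

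An E2F-type word was present in 9 of the 13 matched promoters of replication genes (69.2%), in 5 of 14 of G1 genes (35.7%) and in 2 of 25 of mitotic genes (8%). Among all 35116 promoters of the same length, 3.31% held one. For the CHR word the order was different. It stood in 13 of 25 mitotic promoters (52%), in 1 of 14 G1 promoters and in 0 of 13 replication promoters, beside 15.2% of all promoters. CCAAT boxes were found in 76% of mitotic and 76.9% of replication promoters and in 35.7% of G1 promoters, beside 34.6% of all. In the stretches of CCNB2 and PLK1 the CHR word lay 29 bases before the start in both, with CCAAT boxes farther upstream. A match of letters describes the sequence and does not show binding in HEC1A.

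**Figure D1:**
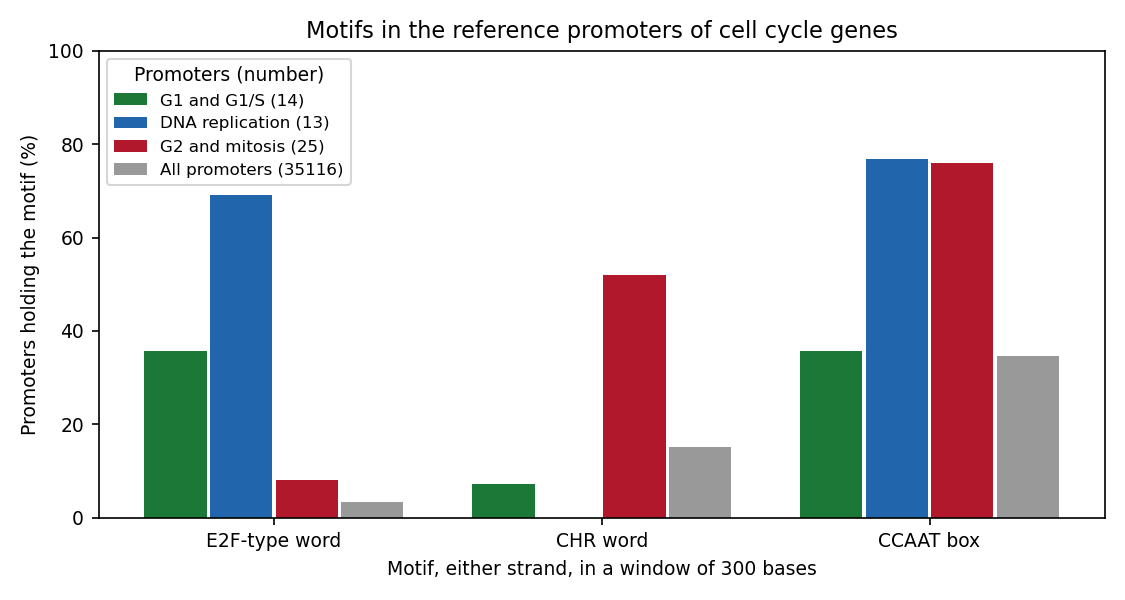
Share of RefSeq promoters (percent, y axis) of 300 bases that hold an E2F-type word, the CHR word or a CCAAT box on either strand, for G1, replication and mitotic genes and for all promoters. E2F-type words are most frequent in replication promoters (69.2%) and the CHR word in mitotic promoters (52%), against 3.31% and 15.2% of all promoters.

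The arrays held 54675 probe sets and had been brought to nearly equal distributions before deposit, with medians of 6.02 and 6.01. A gene passed the brightness filter if its higher value reached 6.40, the median of the probe sets with 1 symbol, and 12061 genes did. EMP2 read 12.25 under overexpression and 9.51 under knockdown on its brightest probe set, a difference of 2.74, while its other 3 probe sets differed by 0.00 to 0.39. Of 10 epithelial markers 9 exceeded the brightest bacterial control probe set (5.85), among them PAX8 and EPCAM, and SOX17 did not. Of 8 measured leukocyte markers 7 did not exceed it, nor did 6 of 10 endothelial and 6 of 10 fibroblast markers. Their median differences were 0.00, -0.04 and 0.00. The epithelial median was -0.15, and these markers differed in both directions, with CDH1 at 1.08, KRT19 at -0.97, KRT8 at -0.77, PAX8 at -0.07 and EPCAM at 0.01. The part of these differences in the cell cycle values was not tested.

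Of the 48 cell cycle genes, 47 passed the filter. CCND2 was the exception, so counts below are over 47 genes. Most differed little between the states. CDK6 and CCNE2 were higher in overexpression by 1.5-fold or more, and 0 genes were lower by that much. The background over all genes past the filter was 4.97% higher and 4.15% lower at this size, so 2 of 47 is near it. At 1.2-fold 8 genes were higher and 3 lower, beside 14.9% and 14.7% of all genes. At 2-fold 1 gene, CDK6, was higher and 0 were lower, beside 1.65% and 1.53%. The sign leaned to overexpression, with 28 of the 47 above 0 (59.6%), where 45.6% of all genes were, and 18 below it (38.3%), where 49.7% of all genes were. Their median was 0.08 and that of all genes 0.00.

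The 3 groups differed in where their values lay. The 13 G1 genes past the filter had a median of 0.12 and ran from -0.54 to 1.06, with 10 above 0. The 12 replication genes had a median of -0.11, from -0.58 to 0.30, with 4 above 0 and 8 below. The 22 mitotic genes had a median of 0.06 and the narrowest range, from -0.25 to 0.40, with 14 above 0. The median of all genes past the filter was 0.00, with 45.6% above 0 and 49.7% below. Genes are not replicates of a condition, so the groups were set side by side without a test.

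**Figure D2:**
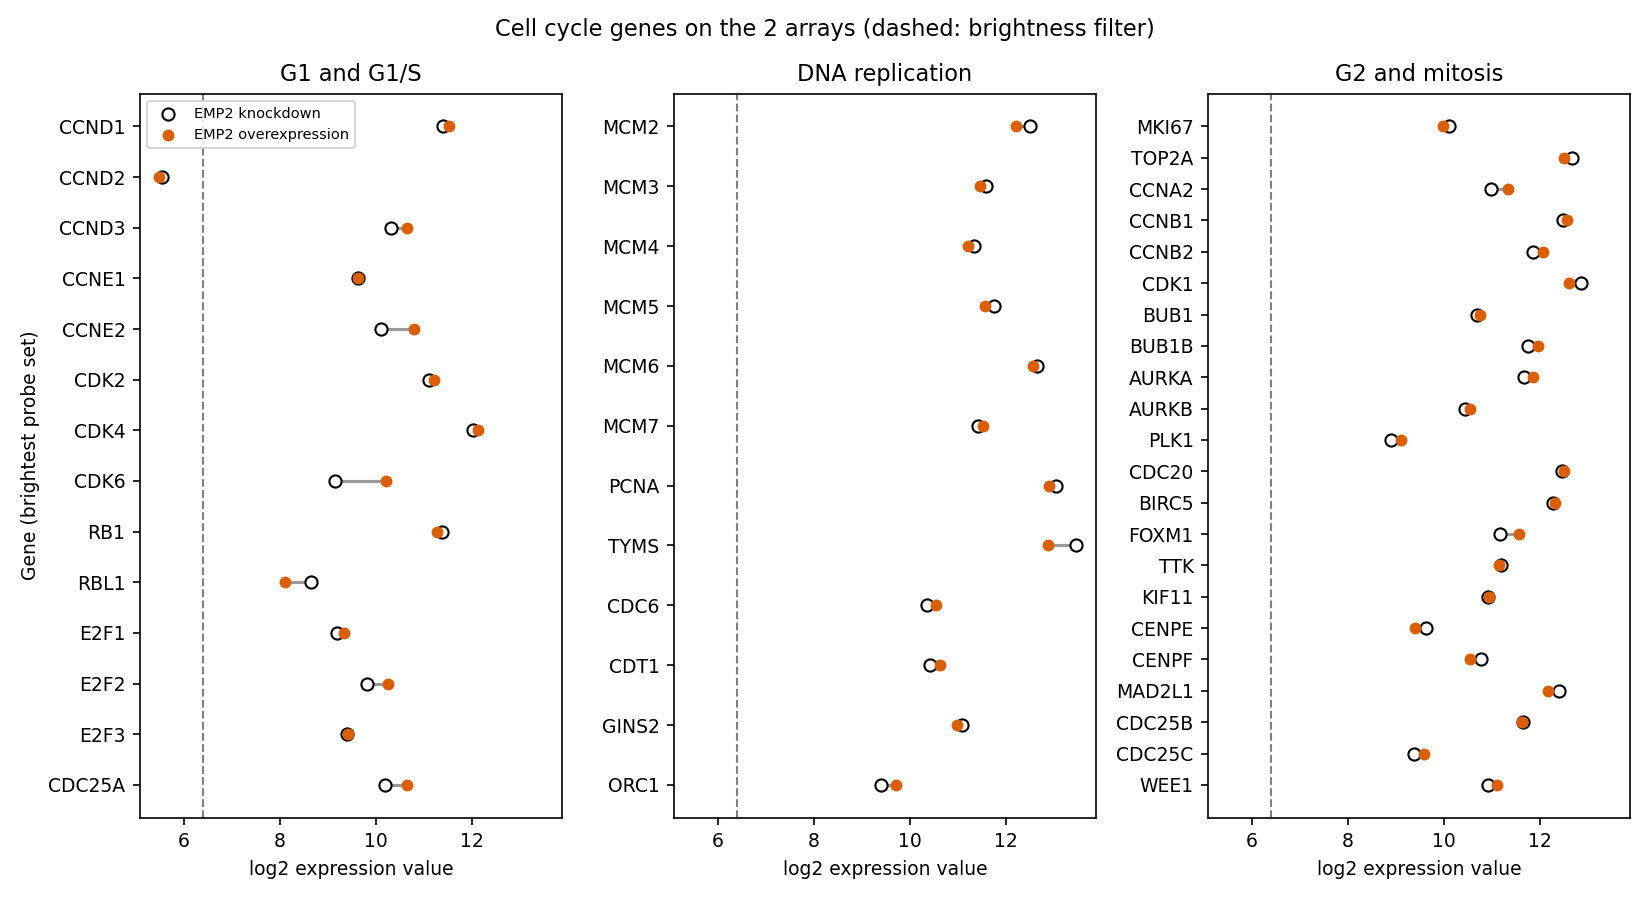
Log2 expression value (x axis) of the 48 genes on the knockdown array (open circles) and the overexpression array (filled circles), 1 array each, joined by a line. The points nearly coincide for most genes, CDK6 and CCNE2 are farther right in overexpression, TYMS and RBL1 farther left, and CCND2 lies below the dashed filter at 6.40.

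Among the G1 cyclins, CCNE2 differed most. CCNE2, which activates CDK2 at the entry to S phase, read 10.80 under overexpression and 10.12 under knockdown, so it was 1.60-fold higher. Its other probe set read 7.88 and 7.11, a difference of 0.77 in the same direction. The paralogue CCNE1 had the identical value, 9.64, on both arrays. Identical values are frequent in this table: 4.78% of the genes past the filter had them.

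Of the D-type cyclins, which link growth factor signals to the cycle, CCND3 read 10.66 under overexpression and 10.33 under knockdown, a difference of 0.33. Its other probe set was below the filter and read the same on both arrays. CCND1, a classical oncogenic cyclin, read 11.53 and 11.40, a difference of 0.12, and 0.35 on its second probe set. None of the 4 CCND2 probe sets was above the bacterial controls on either array, and the brightest read 5.49 under overexpression and 5.54 under knockdown. D-type cyclin signal above the bacterial controls was seen for CCND1 and CCND3.

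CDK6, the partner of D-type cyclins that can stand in for CDK4, had the largest difference of the 48 genes. It read 10.21 under overexpression and 9.15 under knockdown, which is 2.09-fold higher, and 1.48% of all genes past the filter had a difference as large or larger. A second CDK6 probe set past the filter on both arrays also had 1.06 (8.79 against 7.73). Another, at 7.46 against 6.08, passed through the overexpression array alone, so its difference adds no support. The other 4 CDK6 probe sets were dim and differed by 0.00 to 0.25, and with all 7 averaged the difference was 0.55, below 1.5-fold. CDK4 and CDK2 were close between the states. CDK4 read 12.13 against 12.02 and CDK2 11.22 against 11.10, differences of 0.11 and 0.12.

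The genes of the RB family were below 0. RBL1, which encodes the pocket protein p107, read 8.11 under overexpression and 8.65 under knockdown, a difference of -0.54 or 1.46-fold lower. Its second probe set past the filter had -0.29, and with all 4 averaged the value was -0.23. RB1, the retinoblastoma protein itself, read 11.28 and 11.39, a difference of -0.11, and 0.05 with its dim second probe set averaged in. RBL2, which encodes p130, had -0.17 and -0.41 on its probe sets.

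The activator E2Fs, targets of the pocket proteins, were all above 0 on their brightest probe sets. E2F2 read 10.25 under overexpression and 9.82 under knockdown, a difference of 0.43, and 0.06 on the other probe set past the filter on both arrays. The remaining one, at 6.21 against 6.44, passed through the knockdown array alone, and the average of the 3 was 0.09. E2F1 differed by 0.15 (9.34 against 9.19) and E2F3 by 0.04 (9.43 against 9.39). The second E2F3 probe set read 6.72 on both arrays. CDC25A, the phosphatase that removes inhibitory phosphate from CDK2, read 10.66 and 10.20. Its difference was 0.46, or 1.38-fold, and its 3 probe sets all pointed the same way, at 0.46, 0.46 and 0.80. The promoters of RBL1 and CDC25A shown above both carry the E2F-type word TTTGGCGC, while the differences of these genes had opposite signs.

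Of the 12 replication genes 8 were below 0, beside 49.7% of all genes. TYMS, thymidylate synthase, which makes the thymidine nucleotide for DNA, was the lowest of the 48 genes. It read 12.89 under overexpression and 13.47 under knockdown, a difference of -0.584, just short of the 1.5-fold threshold of 0.585. Its second bright probe set had -0.54 (11.06 against 11.60), and the third, not above the bacterial controls, -0.38. Among all genes 4.15% had a difference as low or lower.

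The MCM2 to MCM7 proteins form the ring-shaped helicase that is loaded at origins and unwinds DNA. MCM2 differed most among the 6, reading 12.21 under overexpression and 12.51 under knockdown, a difference of -0.30. MCM5 had -0.20 (11.56 against 11.76), with -0.17 on its second probe set. MCM6 had -0.07 on its brightest and -0.41 on its dimmer probe set. MCM3 and MCM4 were both at -0.12, though 2 of the 5 MCM4 probe sets were above 0 and their average was 0.00. MCM7 was the member of the ring above 0, at 0.10 and 0.17 on its probe sets. The median of the 6 was -0.12, and the largest difference on a brightest probe set, that of MCM2, was 1.24-fold.

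PCNA, the sliding clamp of the polymerases, read 12.91 and 13.05, a difference of -0.14. GINS2, a subunit of the active helicase, had -0.11 on its brightest probe set and 0.01 and 0.08 on the others. ORC1, CDT1 and CDC6, which take part in loading the helicase, differed in sign from most of the ring. ORC1, of the origin recognition complex, read 9.70 under overexpression and 9.40 under knockdown, a difference of 0.30. The other subunits of that complex did not share this lean. ORC2 had -0.20, ORC3 -0.23, ORC5 -0.23 and ORC6 0.04, and ORC4 read the same on both arrays. CDT1 had 0.21 (10.62 against 10.41) and CDC6 0.19 (10.54 against 10.35), and for both the second probe set was above 0 as well, at 0.12 and 0.28. The E2F-type word was found in the promoters of CDC6, CDT1 and MCM7, which were above 0. It was also found in those of MCM2, MCM3, MCM6, PCNA, TYMS and GINS2, which were below 0. The matched promoter of ORC1 held no such word. Over the cell cycle genes with a matched promoter, the 15 with the word had a median difference of -0.07, with 7 above 0. The 22 without it had 0.09, with 14 above 0. Of all genes past the filter 45.6% were above 0. A link between the word and the differences was not tested.

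In the mitotic group 0 of 22 genes reached 1.5-fold in either direction, beside 4.97% of all genes higher and 4.15% lower. FOXM1, the transcription factor of the G2 and mitotic programme, had the largest value, reading 11.57 under overexpression and 11.17 under knockdown on its single probe set, a difference of 0.40 or 1.32-fold. CCNA2, cyclin A2, which acts with CDK2 and CDK1, followed at 0.35 (11.33 against 10.97), and its second probe set had 0.40. These were the 2 mitotic genes of 22 that were 1.2-fold higher, and 0 were 1.2-fold lower, both below the shares of all genes (14.9% and 14.7%). CCNB2 read 12.06 and 11.86, a difference of 0.20. CCNB1 differed by 0.09 on one probe set and -0.29 on the other. CDK1, the kinase these cyclins activate, had -0.25 (12.61 against 12.86), but its other 3 probe sets lay between -0.04 and 0.07. The genes that switch CDK1 on and off were near or above 0. CDC25C had 0.22, CDC25B -0.01, and WEE1, the inhibitory kinase, 0.19 and 0.42 on its probe sets.

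The mitotic kinases PLK1, AURKA and AURKB were each slightly above 0, at 0.21, 0.18 and 0.11. PLK1 read 9.11 under overexpression and 8.90 under knockdown. For AURKA a dimmer probe set had -0.12. Of the spindle checkpoint genes, BUB1B had 0.21, BUB1 0.08 and TTK -0.02, MAD2L1 had -0.23 on its brightest and 0.02 on its dimmest probe set, and CDC20, the activator they restrain, had 0.04. BIRC5, survivin of the chromosomal passenger complex, differed by 0.04, with 2 of its 4 probe sets above 0 and 2 below.

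CENPF and CENPE, which encode large kinetochore proteins, were below 0. Other kinetochore genes had both signs, such as KNTC1 at 0.09, NDC80 at 0.14 and SPC24 at -0.28. CENPF read 10.54 under overexpression and 10.77 under knockdown, a difference of -0.23, and its second probe set past the filter had -0.64. CENPE, a kinetochore motor, had -0.24 (9.39 against 9.63). The spindle motor KIF11 was at 0.04. The proliferation markers in common use, MKI67 and TOP2A, each had probe sets on both sides of 0. MKI67, the Ki-67 antigen, read 9.98 and 10.10, and its 4 probe sets lay between -0.31 and 0.01. TOP2A, the topoisomerase that untangles chromosomes, had -0.18 on one bright probe set and 0.13 on the other. The 12 genes with a CHR word in a matched promoter had a median of 0.04, between -0.25 and 0.22, with 7 above 0. The 25 without it had a median of 0.09, with 14 above 0, beside 45.6% of all genes.

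Where a gene had more than 1 probe set past the filter, those probe sets give a check on its sign, although they share the RNA and the array. Over probe sets past it on both arrays, 18 of 28 such genes had one sign throughout (64.3%), as had 56.8% of all genes with several. This count was added after seeing the data. The planned count, with probe sets past the filter on 1 array too, was 17 of 28 (60.7%), beside 56.9% of all genes. On both arrays the share was 8 of 9 in the G1 group (7 of 9 as planned), 6 of 8 in the replication group and 4 of 11 in the mitotic group. The genes with the largest differences, CDK6, CCNE2, TYMS, RBL1 and CDC25A, were among the 18. They were picked by size on these same arrays, so their agreement adds no support.

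**Figure D3:**
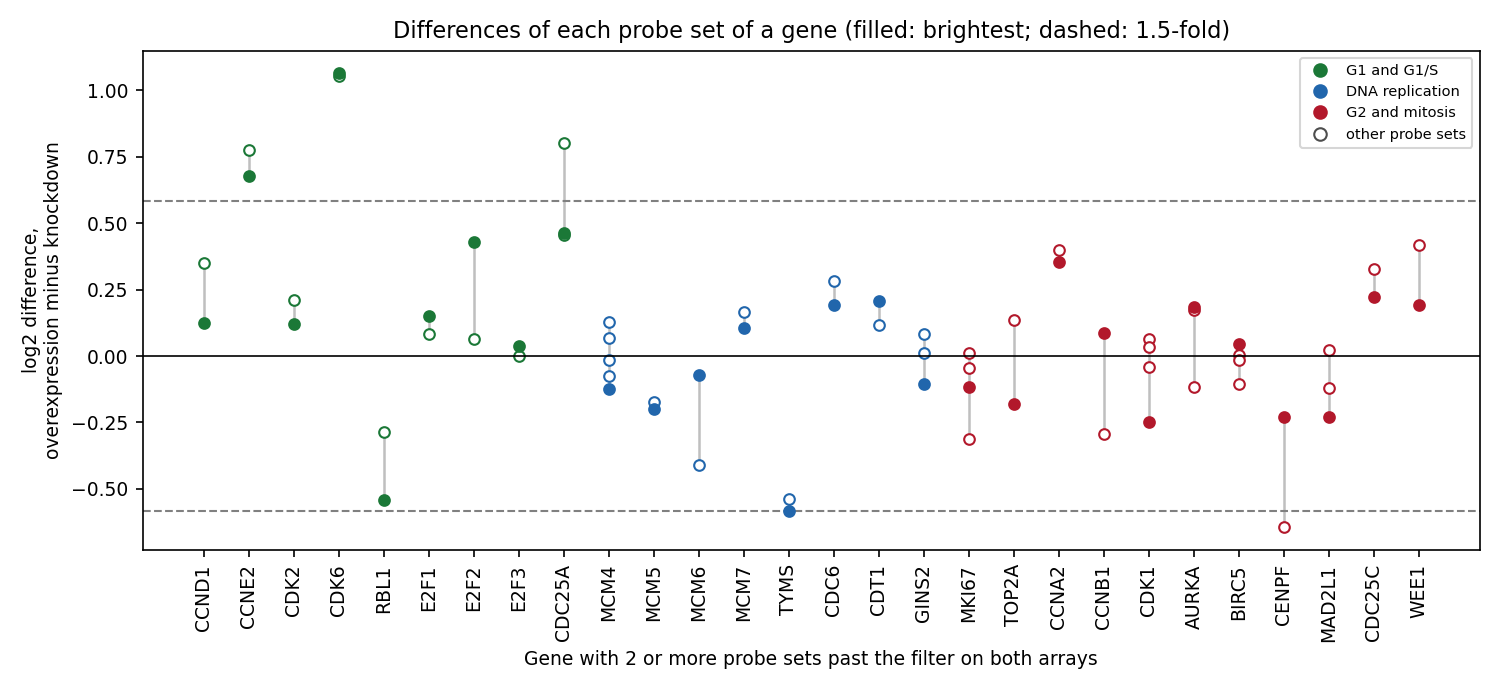
Log2 difference, overexpression minus knockdown (y axis), of every probe set past the filter on both arrays for the 28 genes with more than 1, coloured by group, with the brightest filled and 1.5-fold dashed. CDK6 (1.06 on both) and CCNE2 (0.68 and 0.77) lie above 1.5-fold, as does 1 probe set of CDC25A (0.80). For CENPF 1 probe set lies below the lower line (-0.64), and TYMS lies at or near it. Values that do not share a sign are seen for 10 genes, such as CCNB1 and TOP2A.

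Other genes of the cycle were taken from 5 lists. Of 24 further G1/S regulators, 2 were higher and 1 was lower by 1.5-fold or more, with a median of -0.01. These counts are near the shares of all genes, 4.97% and 4.15%. TFDP2, a dimerization partner of E2F, read 11.02 under overexpression and 10.06 under knockdown, 1.94-fold higher, and its 4 probe sets lay between 0.29 and 0.96. E2F6, a repressor E2F, was 1.69-fold higher (10.58 against 9.82), and E2F5, a partner of the pocket proteins, 1.64-fold lower (8.31 against 9.02). MYBL2, which encodes B-MYB, had 0.57, just short of 1.5-fold. Of 6 CDK inhibitor genes past the filter, 3 were higher by 1.5-fold or more and 0 were lower, beside 4.97% and 4.15% of all genes, with a median of 0.43. CDKN1C read 9.59 and 8.68, 1.87-fold higher, and 4 of the 5 CDKN1C probe sets passed the filter, with differences between 0.72 and 0.98. CDKN3, a CDK phosphatase, was 1.56-fold higher and CDKN2A, the p16 and ARF locus, 1.51-fold, while CDKN1A had 0.26 and CDKN1B -0.09.

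Of 45 other replication genes past the filter, 0 were 1.5-fold higher or lower, beside 4.97% and 4.15% of all genes. Above 0 were 25 and below it 18, beside 45.6% and 49.7% of all genes, and the median was 0.02. CHAF1B, of the chromatin assembly factor, had 0.52, and TK1 and TIPIN had 0.38 each. TK1, thymidine kinase, thus had the opposite sign to TYMS, and so had RRM2, of ribonucleotide reductase, at 0.37. Of 84 other mitotic genes, 2 were at least 1.5-fold higher, the centromeric histone CENPA (10.65 against 9.97, 1.60-fold) and the condensin subunit NCAPD3 (10.48 against 9.89, 1.51-fold), and 0 were 1.5-fold lower. The shares of all genes at this size were 4.97% and 4.15%, and the median of the 84 was 0.05. Of 5 checkpoint kinases, 2 were at least 1.5-fold higher and 0 lower, beside 4.97% and 4.15% of all genes. CHEK1 read 11.11 under overexpression and 10.42 under knockdown, 1.61-fold higher with all 4 probe sets above 0. ATM was 1.51-fold higher (8.35 against 7.75) on its brightest probe set. For ATM 3 of 6 probe sets passed the filter, with differences between 0.20 and 0.60. Over all 164 of these genes past the filter the median was 0.04, and 57.9% were above 0, beside 45.6% of all genes.

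**Figure D4:**
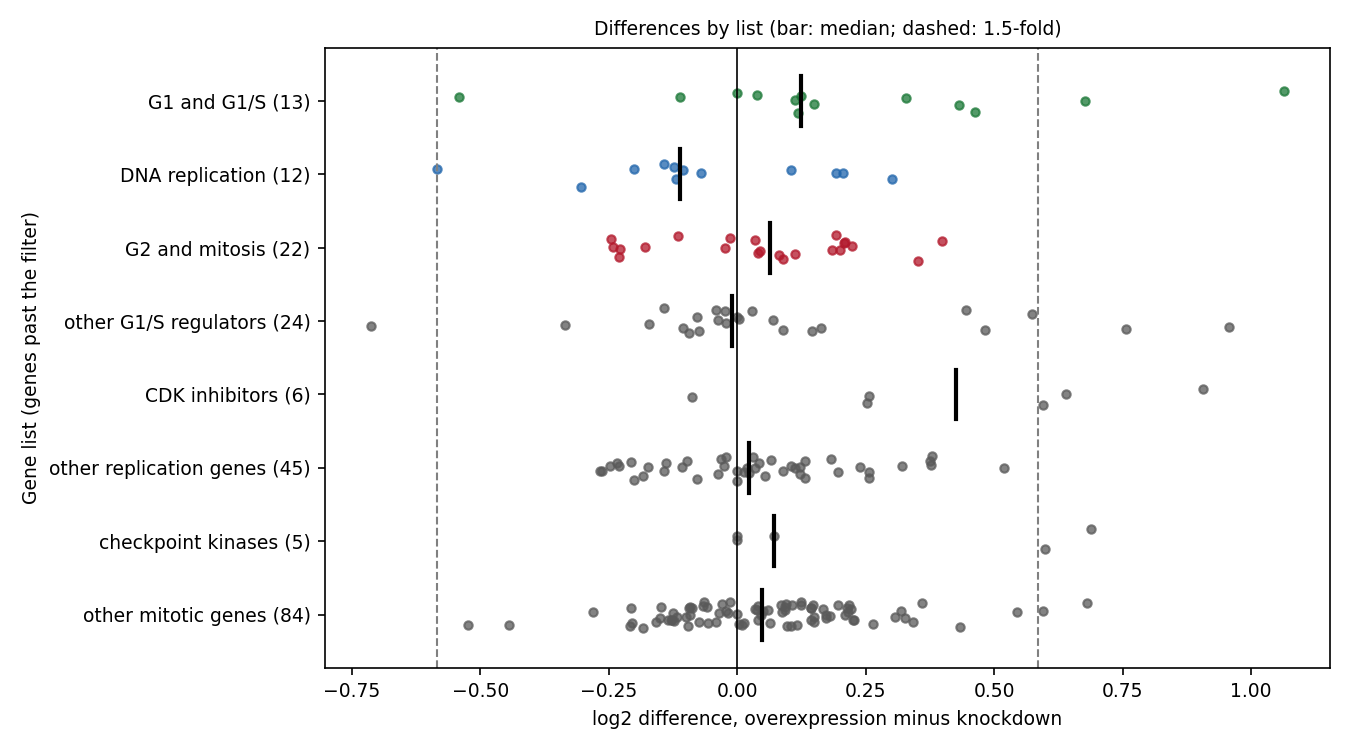
Log2 difference, overexpression minus knockdown (x axis), of each gene past the filter in the 3 groups and the 5 further lists (number of genes in brackets), with the median as a bar and 1.5-fold dashed. The medians are 0.12, -0.11 and 0.06 in the G1, replication and mitotic groups and 0.43 over the 6 CDK inhibitors.

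Some of the genes lie among neighbours that mostly shared their sign. For each gene the 10 nearest genes past the filter on either side of the chromosome were examined, fewer near a chromosome end. Around CHEK1, ATM and NCAPD3, all on chromosome 11, the neighbours' medians were 0.31, 0.27 and 0.40, with 18 of 20, 19 of 20 and 13 of 15 above 0. Around CENPA and E2F6 on chromosome 2 they were 0.35 and 0.26. Lower genes had such neighbours as well. Around E2F5 on chromosome 8 the neighbours' median was -0.20, with 4 of 20 above 0. It was also -0.20 around CENPF on chromosome 1, with 4 of 20 above 0. The part of these neighbourhoods in the values of the genes was not tested. For CDK6 the neighbours' median was -0.19, with 7 of 20 above 0, and for CCNE2 -0.09. For RBL1 it was 0.09, with 11 of 20 above 0, and for TYMS 0.04, with 7 of 13 above 0. The part of the neighbourhoods in the values of these 4 genes was not tested either.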

How the data were processed

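The deposited table holds 1 value per probe set and array on a log scale, read as log2 from its range of 2.01 to 14.72; the base is not stated, and every fold rests on it. Per the submitters' processing notes the authors used Partek 6.6. No background correction, normalization or summarization method is stated in the labels. Once sorted, the values of the 2 arrays lay within 0.05 of each other, so a shift common to most genes would not be seen. Per the labels' protocols total RNA was labelled with biotin. The number of arrays limits the precision, and no depth applies.

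Values were used as deposited. Probe sets with 1 symbol in the platform annotation (41097) were kept, and 1801 with several were left out. Genes were counted at 1.5-fold, with Python 3.11.15 and pandas 2.3.3. The counting was tested on simulated data. The genes, groups and lists were chosen with earlier results of these data known, and all 48 genes, EMP2 and, in each further list, genes past 1.5-fold were to be named, or else the pair with the largest differences. The further genes named with smaller values, the marker comparison's bacterial floor of 27 probe sets, the neighbours and the subgroup medians were chosen after values were seen. In the other replication list the largest pair by size is CHAF1B and TK1. Alternatives were the mean of probe sets, other scaling, other filters, other folds and a floor.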

Additional observations from a re-analysis of the deposited data

How the results depend on the processing

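The medians of the 48 genes and of the 3 groups moved by less than 0.1 log2 units and kept their sign under each alternative run, namely averaging probe sets (all, or those past the filter), median centring, quantile normalization, no filter and a filter at the 75th percentile. The replication median was between -0.13 and -0.06. The count above 0 ran from 26 to 29, while the share of all genes above 0 ran from 42.6% to 48.4%. With all probe sets averaged 1 gene was at least 1.5-fold higher in place of 2, since CDK6 then had 0.55. The share of all genes was then 3.65% in place of 4.97%. At 1.2-fold 8 were higher and 3 lower, beside 14.9% and 14.7% of all genes. At 2-fold 1 was higher, beside 1.65%. With median centring 1 gene was at least 1.5-fold lower, beside 4.28% of all genes. It was TYMS, which lies at the threshold. Averaging all probe sets moved 16 of the 48 single differences by 0.1 or more, and averaging those past the filter moved 15. With all probe sets averaged the sign turned for 5 genes, RB1 (0.05), TOP2A (0.22), CCNB1 (-0.10), BIRC5 (-0.02) and CCND2 (0.03), and with those past the filter for CCNB1 and BIRC5. Counting probe sets past the filter on 1 array too, as planned, 17 genes had one sign. The count of 18, over probe sets past it on both arrays, was added after seeing the data. Centring and quantile normalization moved 0 of the 48 that far.

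No paired analysis was possible because each group has 1 array, and leaving out an array leaves no comparison. Without replicates, differences of the size seen here cannot be told apart from array noise, nor the effect of the overexpression from that of the knockdown.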
